A study of Rattus norvegicus with 32 samples.

Results

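Lhx2, Lgr5, Shh, Msx2 and Vdr are 5 genes of the hair follicle programme, and their signal was followed through 16 cultures of rat epithelial cells. They were taken from the series by symbol. Each was read by exactly 1 probe set annotated to that gene alone: Lhx2 by 10835958, Lgr5 by 10902420, Shh by 10852676, Msx2 by 10794200 and Vdr by 10906736. All 5 were measured, out of 14511 genes with such a probe set. They were chosen by their measured signal, which was lower in thymic than in hair follicle cultures before grafting. That comparison is therefore described without a test, and so are the comparisons that share its cultures.

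The cells came from Sprague-Dawley rats that express green fluorescent protein throughout the body, in every group. Thymic epithelial cells (TEC), which form the framework in which T cells mature, were measured in 4 cultures before grafting. These were the clones PRE16cl11_VII (embryonic day 16, E16), PRP1cl11_VII (labelled P1) and PRP4mo_Cl09 (4 months), and the bulk culture PRP4mo_bulk (4 months). After a first transplantation into skin on nude mice there were 4 TEC cultures: Clone_217 and Clone_218 (E16), Clone_57 (P1) and Clone_907 (4 months, labelled bulk). After a second transplantation there were also 4: Clone_287 and Clone_347 (E16), Clone_194 (P1) and Clone_354 (4 months, bulk). Hair follicle (HF) cells, all labelled P5, were measured in the bulk culture YR219P5_Bulk_V and the clone YR219P5cl7 before grafting, and in the bulk culture YR219P5_RC and Clone_54 after a first transplantation. All were grown on irradiated 3T3-J2 mouse fibroblasts. No TEC culture carries the P5 label, and the labels name no culture regrown without a graft. An effect of the skin and effects of selection, recovery or longer culture cannot be told apart, nor can tissue and donor stage.

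The hair follicle grows, regresses and rests in cycles that are driven by signals between its epithelium and the dermal papilla beneath it. Shh is a secreted ligand that the growing hair bud uses to drive proliferation. Lgr5 is a receptor for R-spondins, which enhance Wnt signalling, and marks cycling stem cells in the lower bulge and hair germ of mice. Lhx2, a LIM homeobox transcription factor, maintains follicle stem cells in the mouse, and Msx2, a homeobox factor downstream of BMP signals, is needed for normal hair cycling and hair shaft differentiation. Vdr, the nuclear receptor of vitamin D, is required in mouse keratinocytes for the follicle to re-enter growth after its formation, a role that does not need its ligand.

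Lhx2, Msx2 and Vdr are the genes whose signals moved together over the grafted TEC cultures, so their start regions are shown. Each sequence is a window of 300 bases around the start of the gene, most of it upstream, from RefSeq on the GRCr8 assembly. It is written 5′ to 3′ on the strand of the gene, with GC boxes (GGGCGG) and CCAAT boxes (CCAAT), on either strand, in capitals.
Lhx2, chr3:42535494-42535793, plus strand: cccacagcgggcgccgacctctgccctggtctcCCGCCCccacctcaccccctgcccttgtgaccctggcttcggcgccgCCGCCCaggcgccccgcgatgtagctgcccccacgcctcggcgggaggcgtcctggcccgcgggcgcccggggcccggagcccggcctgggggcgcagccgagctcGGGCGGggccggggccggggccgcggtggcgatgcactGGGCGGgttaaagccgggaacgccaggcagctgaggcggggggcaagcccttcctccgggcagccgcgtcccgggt
Msx2, chr17:11102034-11102333, plus strand: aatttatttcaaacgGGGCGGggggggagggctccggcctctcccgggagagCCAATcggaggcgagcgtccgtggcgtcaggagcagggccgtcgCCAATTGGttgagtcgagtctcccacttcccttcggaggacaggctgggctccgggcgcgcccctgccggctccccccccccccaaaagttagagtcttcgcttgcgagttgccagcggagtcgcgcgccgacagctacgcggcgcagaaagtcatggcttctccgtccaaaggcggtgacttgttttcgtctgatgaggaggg
Vdr, chr7:130916708-130917007, minus strand: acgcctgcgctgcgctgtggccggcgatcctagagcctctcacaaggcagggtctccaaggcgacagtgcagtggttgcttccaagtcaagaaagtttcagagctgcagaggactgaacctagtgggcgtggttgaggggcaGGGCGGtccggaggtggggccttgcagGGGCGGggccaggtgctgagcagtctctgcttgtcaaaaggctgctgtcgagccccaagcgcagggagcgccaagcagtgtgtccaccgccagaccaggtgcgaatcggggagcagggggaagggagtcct
The Lhx2 window held 4 GC boxes, the Vdr window 2 and the Msx2 window 1, and 33.1% of 33469 rat promoter windows of the same length held at least 1. The Msx2 window also held 3 CCAAT boxes, 2 of which overlap on opposite strands, and 37.5% of all windows held at least 1. Other letters searched on both strands were the LEF/TCF core CTTTGA (16.1% of all windows), the homeodomain core TAATTA (5.36%), the nuclear receptor half-site AGGTCA (16.2%) and the GLI core CCACCC (29.4%). None of these occurred in the 3 windows.

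The values are log2 probe set signals after RMA, and the mean of the 2 arrays of a culture was the unit. A culture mean under 4 may be background. The median of array 1 of YR219P5_RC was 5.782, above the 5.287 to 5.554 of the other 31 arrays. The mean of 5 of 7 stratified epithelium markers was 10.66 to 11.15 over all cultures, and Krt14, a basal keratin, stood at 12.95 to 13.35. Of the thymic markers, Pax9 stood at 9.04 ± 0.39 in ungrafted TEC against 6.32 ± 0.16 in ungrafted HF cultures (SD, n = 4 and 2), whereas Psmb11, a proteasome subunit of the thymic cortex, was at 4.03 in both. Ccl25, a chemokine of thymic epithelium, was under 4 in every group. Where a signal is lower, fewer cells of a type and less RNA per cell cannot be told apart.

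Shh, the ligand, had the narrowest range of the 5 genes, from 4.49 to 5.38. These values were near or below the array medians, which were 5.287 to 5.554 in 31 arrays. The signal may therefore be near background, and its differences may not reflect Shh RNA. Its signal was 4.71, 4.76, 4.49 and 4.71 in the ungrafted TEC cultures PRE16cl11_VII, PRP1cl11_VII, PRP4mo_bulk and PRP4mo_Cl09. After the first graft it was 4.74 in Clone_217, 4.89 in Clone_218, 4.82 in Clone_57 and 4.98 in Clone_907. After the second graft it was 4.87 in Clone_287, 4.77 in Clone_347, 4.64 in Clone_194 and 4.84 in Clone_354. All 12 TEC values lay below the HF values, but in the ungrafted cultures Shh was chosen for this. Before grafting, 13.1% of all probe sets were lower in TEC without overlap. Against grafted HF cultures 19.2% were after the first graft and 15.3% after the second. The share for all groups together was not counted. The HF cultures stood at 5.09 in YR219P5_Bulk_V and 5.14 in YR219P5cl7 before grafting, and at 5.38 in YR219P5_RC and 5.10 in Clone_54 after it. The group means, in rising order, were 4.67 ± 0.12 in ungrafted TEC, 4.78 ± 0.10 in second-graft TEC and 4.86 ± 0.10 in first-graft TEC (SD, n = 4 each), then 5.12 ± 0.03 in ungrafted HF and 5.24 ± 0.20 in grafted HF cultures (n = 2 each). Among the 3 TEC groups, and between both HF groups, the values overlapped.

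Lgr5, the R-spondin receptor, was under 4 in all 4 ungrafted TEC cultures, at 3.80, 3.89, 3.83 and 3.80 in PRE16cl11_VII, PRP1cl11_VII, PRP4mo_bulk and PRP4mo_Cl09. First-graft TEC cultures had 3.74 in Clone_217, 3.71 in Clone_218, 4.59 in Clone_57 and 3.88 in Clone_907. Second-graft TEC cultures had 4.55 in Clone_287, 3.92 in Clone_347, 4.52 in Clone_194 and 3.94 in Clone_354. Of the 8 grafted TEC cultures only Clone_57, Clone_287 and Clone_194 stood above 4, and both grafted P1 cultures were among them. In HF cultures Lgr5 was 4.86 in YR219P5_Bulk_V and 4.67 in YR219P5cl7 before grafting, and 5.38 in YR219P5_RC and 4.30 in Clone_54 after it. The value of YR219P5_RC is uncertain, because its arrays read 6.12 and 4.63, a gap of 1.49, while the median gap between the arrays of a culture was 0.15 for this gene. Group means were 3.83 ± 0.04, 3.98 ± 0.41 and 4.23 ± 0.35 in ungrafted, first-graft and second-graft TEC cultures, and 4.77 ± 0.13 and 4.84 ± 0.76 in ungrafted and grafted HF cultures. Second-graft TEC and HF values overlapped. No fold is given for Lgr5, since 9 of 16 cultures were under 4.

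Lhx2, the LIM homeobox factor, was close to uniform in ungrafted TEC cultures, at 5.38 in PRE16cl11_VII, 5.69 in PRP1cl11_VII, 5.46 in PRP4mo_bulk and 5.61 in PRP4mo_Cl09. The first-graft values were 7.57 in Clone_217, 5.52 in Clone_218, 6.43 in Clone_57 and 6.62 in Clone_907. The second-graft values were 7.64 in Clone_287, 5.84 in Clone_347, 6.60 in Clone_194 and 6.13 in Clone_354. The E16 cultures held both ends of this range: Clone_217 and Clone_287 were in or above the HF range, while Clone_218 was within the ungrafted TEC range. HF cultures stood at 7.59 in YR219P5_Bulk_V and 6.92 in YR219P5cl7 before grafting, and at 7.13 in YR219P5_RC and 7.38 in Clone_54 after it. Group means were 5.53 ± 0.14, 6.54 ± 0.84 and 6.55 ± 0.79 in ungrafted, first-graft and second-graft TEC cultures, and 7.25 ± 0.47 and 7.25 ± 0.17 in ungrafted and grafted HF cultures. The 2 grafted TEC groups overlapped each other and the HF groups.

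Msx2, the homeobox factor of the BMP pathway, was 3.87 in PRE16cl11_VII, 4.44 in PRP1cl11_VII, 4.01 in PRP4mo_bulk and 4.04 in PRP4mo_Cl09 before grafting. In first-graft cultures it was 4.96 in Clone_217, 3.93 in Clone_218, 4.13 in Clone_57 and 5.07 in Clone_907. In second-graft cultures it was 5.53 in Clone_287, 4.45 in Clone_347, 4.91 in Clone_194 and 4.63 in Clone_354. Clone_287 was the only TEC culture within the HF range. HF cultures stood at 5.70 in YR219P5_Bulk_V and 5.32 in YR219P5cl7 before grafting, and at 6.19 in YR219P5_RC and 5.35 in Clone_54 after it. The means followed the order of ungrafted, first-graft and second-graft TEC cultures (4.09 ± 0.24, 4.52 ± 0.58 and 4.88 ± 0.47), with ungrafted and grafted HF cultures above them (5.51 ± 0.27 and 5.77 ± 0.60). Neighbours in this order overlapped. The lowest second-graft TEC value, 4.45, stood just above the highest ungrafted TEC value, 4.44. Msx2 was under 4 in PRE16cl11_VII and Clone_218. All TEC values except that of Clone_287 were below the array medians, which were 5.287 to 5.554 in 31 arrays. Low Msx2 values may therefore be near background.

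Vdr, the vitamin D receptor, showed the widest range, from 6.22 to 8.98. It was 6.77 in PRE16cl11_VII, 6.66 in PRP1cl11_VII, 6.22 in PRP4mo_bulk and 6.76 in PRP4mo_Cl09 before grafting. Grafted once, the TEC cultures stood at 8.65 in Clone_217, 7.39 in Clone_218, 7.46 in Clone_57 and 8.06 in Clone_907. All 4 stood above every ungrafted TEC culture, and so did the second-graft cultures. Those were at 8.98 in Clone_287, 7.69 in Clone_347, 8.45 in Clone_194 and 7.93 in Clone_354. In HF cultures Vdr was 7.57 in YR219P5_Bulk_V and 8.0 in YR219P5cl7 before grafting, and 8.30 in YR219P5_RC and 8.18 in Clone_54 after it. Group means were 6.60 ± 0.26, 7.89 ± 0.59 and 8.26 ± 0.57 in ungrafted, first-graft and second-graft TEC cultures, and 7.78 ± 0.31 and 8.24 ± 0.08 in ungrafted and grafted HF cultures. Apart from ungrafted TEC, which lay below the rest, the groups overlapped, except that grafted HF values lay above ungrafted HF values.

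**Figure D1:**
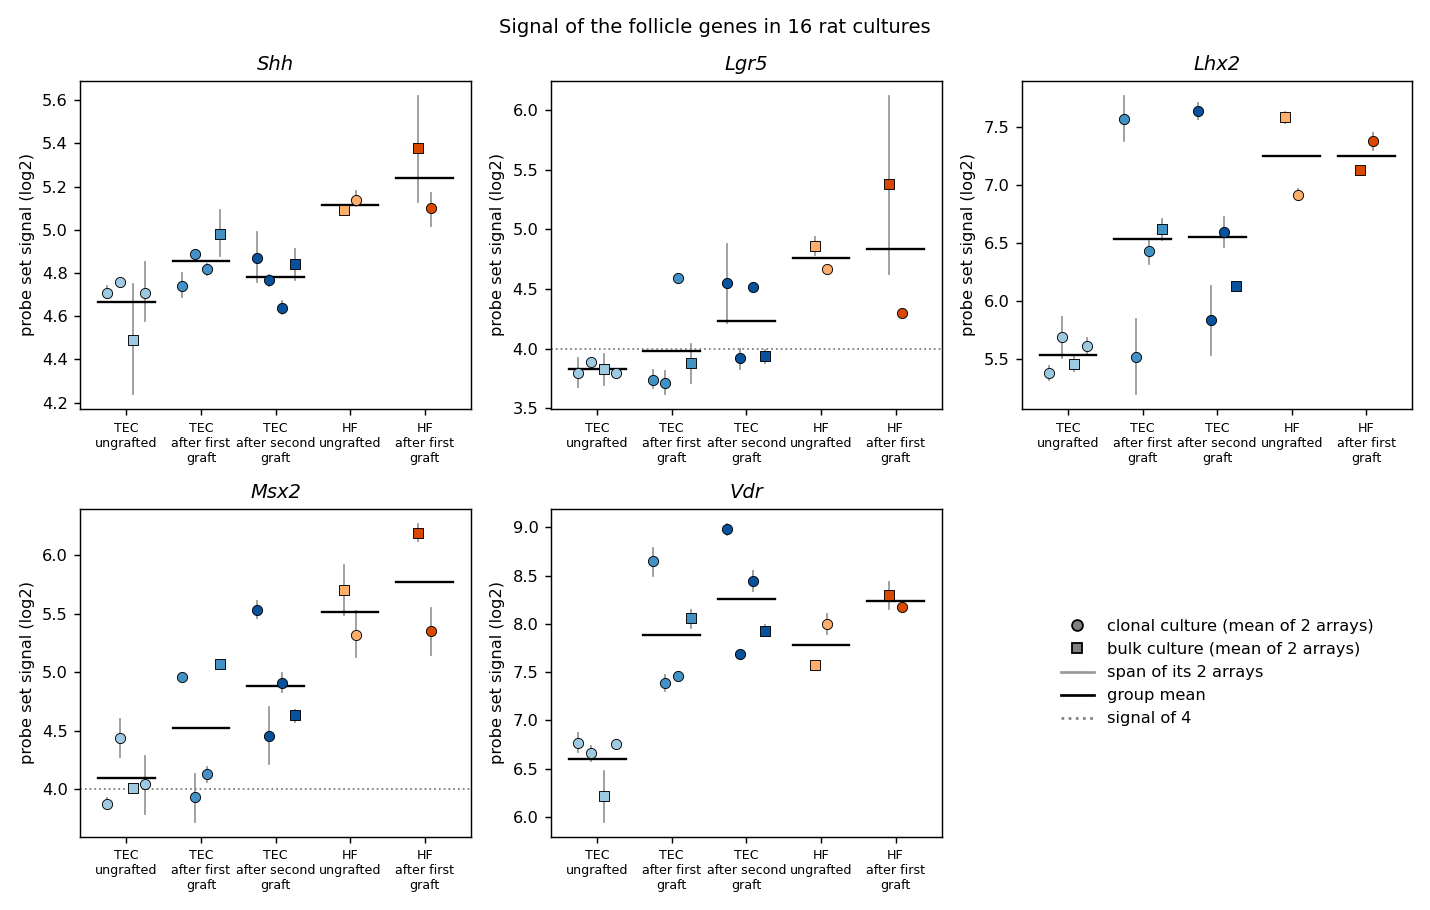
Log2 signal of the 5 genes in each culture (circles for clonal, squares for bulk cultures, grey lines joining the 2 arrays, black lines for group means), by group along the x axis. Clone_287 lies above every HF culture for Lhx2 and Vdr, and Clone_218 lies within the ungrafted TEC range for Lhx2 and Msx2. All 12 TEC values of Shh lie below the HF values, and the share of all probe sets that do so was not counted.

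Between ungrafted TEC and ungrafted HF cultures, the contrast that chose the genes, all 5 were lower in TEC cultures with no overlap, as were 13.1% of all 15316 probe sets. The log2 differences were −1.72 for Lhx2, −1.43 for Msx2, −1.18 for Vdr and −0.45 for Shh. None is given for Lgr5 against ungrafted TEC cultures, which were all under 4. They are given as a description of the choice.

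After the first graft, Vdr stood 1.29 ± 0.30 (log2 difference ± SE, 2.44-fold) above ungrafted TEC cultures, without overlap, as 3.92% of all probe sets did in that direction. Lhx2 stood 1.00 ± 0.40 above, Msx2 0.43 and Shh 0.19, and all 3 had overlapping values, as did Lgr5. After the second graft Vdr stood 1.66 ± 0.30 (3.16-fold) above ungrafted TEC, Lhx2 1.02 ± 0.40 (2.03-fold), and Msx2 0.79 ± 0.29. These 3 and Lgr5, which was under 4 in 2 second-graft cultures, did not overlap with ungrafted TEC, as 6.43% of all probe sets did not in that direction, and Shh, at 0.11 ± 0.09, did. Both comparisons share the ungrafted TEC cultures with the contrast that chose the genes, in which low values there were selected, so no test is given. Fibroblast and feeder markers (13 of 13 measured, mean level) were at 5.24 to 5.48 in first-graft and 5.20 to 5.49 in second-graft TEC cultures, against 5.50 to 5.90 in ungrafted ones, and their part in these differences was not tested. The markers did not move alike. Vim averaged 10.43, 9.51 and 8.69 in ungrafted, first-graft and second-graft TEC cultures, Twist1 7.24, 6.37 and 6.03, and Thy1 5.63, 4.81 and 4.74. Col1a2 fell less, at 6.99, 6.62 and 6.61, and Col1a1 was at 6.95, 6.74 and 6.94.

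Grafted HF cultures stood 0.46 ± 0.42 above ungrafted HF cultures in Vdr, without overlap, as 30.2% of all probe sets did between these groups of 2. The differences of the other genes were 0.26 for Msx2, 0.12 for Shh, 0.07 for Lgr5 and 0.00 for Lhx2. With array 1 of YR219P5_RC left out, Lgr5 differed by −0.30 and Shh by −0.01. The median of all probe sets was itself 0.10 higher in grafted HF cultures, and 0.00 after centring.

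Differences among grafted cultures were tested with limma. The contrast that chose the genes uses no grafted culture, but the choice was made with earlier results of all cultures known. After the first graft, the mean of TEC cultures was below that of grafted HF cultures in all 5 genes, and none passed. The median difference of all probe sets was itself −0.11. Culture values of Lhx2, Lgr5 and Vdr overlapped, and Clone_217 stood above both grafted HF cultures in Lhx2 and Vdr. Msx2 differed by −1.25 ± 0.40 (95% interval −2.15 to −0.36, 2.38-fold, adjusted p = 0.337), lower in 4 of 4 TEC cultures. Its signal may be near background in Clone_218 and Clone_57 (3.93 and 4.13), so its fold is uncertain. Shh differed by −0.38 ± 0.12 (−0.65 to −0.11, adjusted p = 0.337), also lower in 4 of 4. For Lgr5, under 4 in 3 of these TEC cultures, the difference was −0.86 ± 0.34 (−1.62 to −0.09, adjusted p = 0.358), and for Lhx2 −0.72 ± 0.56 (−1.96 to 0.53, adjusted p = 0.531). Vdr differed by −0.35 ± 0.40 (−1.25 to 0.54, adjusted p = 0.668). In this comparison limma called 7 of 15316 probe sets, 0.0457%, so few genes of any kind passed, and 19.2% of all probe sets were lower without overlap, as Msx2 and Shh were.

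Msx2 was the one gene whose call depended on the unit: with single arrays in the fit, blocked by culture, its adjusted p was 0.0481, and 0.062 with the array number as a replicate block as well. Two-sided exact permutation tests over the cultures gave p = 0.133 for Msx2 and 0.0667 for Shh, and 0.0667 is the smallest p that 4 against 2 cultures allow. Without YR219P5_RC the differences were −0.83 for Msx2, −0.32 for Lgr5 and −0.24 for Shh, and without Clone_54 −1.67, −1.40 and −0.52. The median of all probe sets was −0.11 in this comparison and 0.03 after centring, and centred the 5 differences were −1.12 for Msx2, −0.72 for Lgr5, −0.58 for Lhx2, −0.24 for Shh and −0.22 for Vdr.

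After the second graft, Vdr in TEC cultures differed from grafted HF cultures by 0.02 ± 0.40 (−0.87 to 0.91, adjusted p = 0.982). This p does not show equal levels: the interval includes differences of both signs close to 1 log2 unit. Msx2 differed by −0.89 ± 0.40 (−1.78 to 0.01, adjusted p = 0.294), Lhx2 by −0.70 ± 0.56 (−1.95 to 0.55, adjusted p = 0.51) and Lgr5 by −0.61 ± 0.34 (−1.37 to 0.16, adjusted p = 0.364). Shh differed by −0.46 ± 0.12 (−0.73 to −0.19, adjusted p = 0.248), lower in 4 of 4 cultures without overlap, as 15.3% of all probe sets were. Limma called 0% of all probe sets here, 0 of 15316, with 2613 at an unadjusted p under 0.05, 2 called with centred arrays and 59 without Clone_287. With clonal cultures alone, where Clone_54 is the only grafted HF culture, Lgr5 differed by 0.03. Without Clone_287 Vdr differed by −0.22.

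Second-graft and first-graft TEC cultures overlapped in every one of the 5 genes. The differences were 0.37 ± 0.33 for Vdr (−0.36 to 1.10), 0.36 ± 0.33 for Msx2 (−0.37 to 1.09), 0.25 ± 0.28 for Lgr5 (−0.37 to 0.87), 0.02 ± 0.46 for Lhx2 (−1.0 to 1.04) and −0.08 ± 0.10 for Shh (−0.30 to 0.14), each with an adjusted p of 1 by limma. Limma again called 0% of the probe sets, with 379 at an unadjusted p under 0.05 and 10 called without Clone_287. Between TEC cultures of 4-month and E16 donors, with transplantation state in the model, the differences were −0.23 ± 0.33 for Vdr, −0.14 ± 0.45 for Lhx2, 0.07 ± 0.31 for Msx2, 0.01 ± 0.09 for Shh and 0.00 ± 0.16 for Lgr5, with limma adjusted p between 0.886 and 1. In that comparison 14 probe sets, 0.0914%, were called. All E16 cultures were clonal, while the 4-month cultures were bulk except PRP4mo_Cl09. The model had no term for this, so donor age and kind of culture were not separated.

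**Figure D2:**
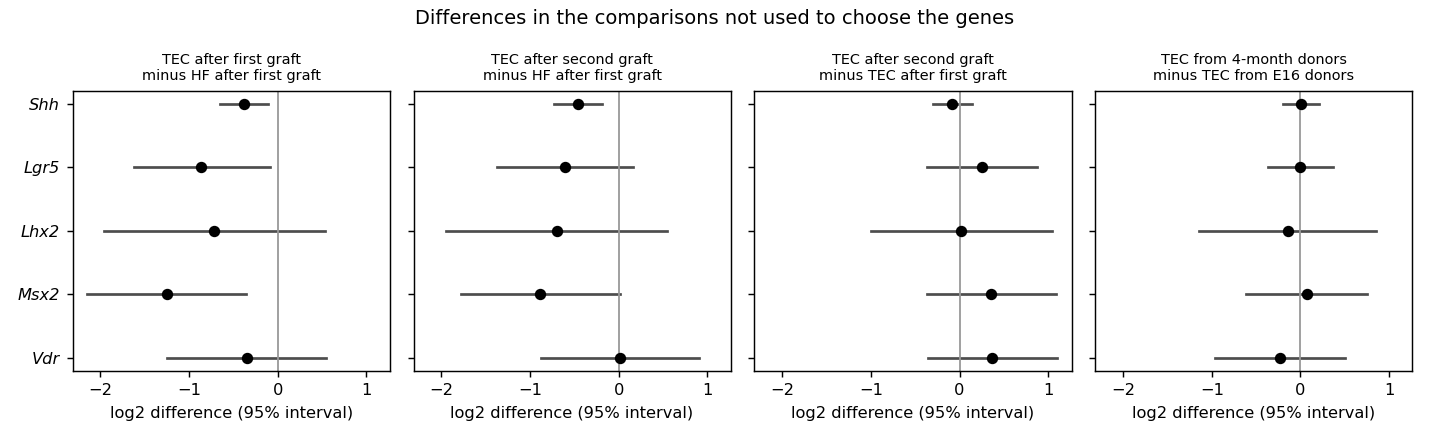
Log2 differences (points) with 95% intervals (lines) of the 5 genes in the comparisons that were tested, from limma; the vertical line is at 0. Only Msx2, Shh and Lgr5 between TEC and HF cultures after a first graft, and Shh between second-graft TEC and grafted HF cultures, have unadjusted intervals that leave out 0.

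The spread between cultures was larger after grafting for 4 of the 5 genes. The SD of Lhx2 was 0.84 in first-graft and 0.79 in second-graft TEC cultures, against 0.14 in ungrafted ones, ratios of 6.01 and 5.65. For Lgr5 the SD was 0.41 and 0.35, against 0.04, with the low values near background in the ungrafted group. Msx2 had ratios of 2.39 and 1.96 and Vdr 2.23 and 2.18, whereas Shh had 0.859 and 0.877. The ungrafted TEC values of Msx2, with a mean of 4.09, may also be near background. Over all probe sets the median ratio was 1.15 after the first graft and 1.25 after the second. A ratio as high as that of Lhx2 was found for 1.25% and 1.99% of all probe sets, and one as high as that of Vdr for 15.1% and 19.7%. A small spread in ungrafted cultures helps a gene to be chosen, so these ratios are a description.

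Over the 8 grafted TEC cultures, Lhx2, Msx2 and Vdr went up and down together. Msx2 and Vdr correlated most closely (Pearson r = 0.93, exact permutation p = 0.00102, adjusted over 10 pairs 0.0102; Spearman rho = 0.93, p = 0.00223, adjusted 0.0152). The 2 lowest cultures in both genes were Clone_218 and Clone_57 and the highest was Clone_287. Msx2 may be near background in these 2 lowest cultures, at 3.93 and 4.13. Lhx2 correlated with Vdr at r = 0.89 (exact permutation p = 0.0035, adjusted 0.0175; rho = 0.90, p = 0.00456, adjusted 0.0152). With Msx2 the value for Lhx2 was r = 0.82 (exact permutation p = 0.0146, adjusted 0.0487; rho = 0.90, p = 0.00456, adjusted 0.0152). The 7 pairs with Lgr5 or Shh lay between r = −0.29 and 0.34, with exact permutation adjusted p of 0.736 to 0.973. Lgr5 was under 4 in 5 of the 8 cultures, so a relation with it could not be read. Its r with Lhx2 was 0.71 without Clone_217 and 0.08 without Clone_287. With Msx2 and Vdr it was 0.64 and 0.65 without Clone_57 and −0.06 and −0.04 without Clone_287, and none of these passed. The r of Lgr5 and Lhx2 was 0.65 without both Clone_217 and Clone_287.

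Set beside the whole array, the link of Msx2 and Vdr was a close one: of 15314 other probe sets, 15 correlated more highly with Msx2 and 16 more highly with Vdr. For Lhx2 and Vdr these counts were 79 and 50, and for Lhx2 and Msx2 239 and 202. With the 2 cultures farthest from the median of the x axis left out, r was 0.85 for Msx2 and Vdr, 0.68 for Lhx2 and Vdr and 0.73 for Lhx2 and Msx2. Without Clone_287 none of the 3 passed (r = 0.88, 0.83 and 0.72, exact permutation adjusted p = 0.0942, 0.0942 and 0.215), and with clonal cultures alone only Msx2 and Vdr did (r = 0.98, adjusted p = 0.0139). Each state holds 4 cultures, too few for a correlation of its own. The labels do not tie second-graft cultures to first-graft ones, so cultures of 1 lineage may be among the 8.

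The array median did not run with the 3 genes: its correlation over the same cultures was −0.27 for Lhx2, −0.15 for Msx2 and −0.30 for Vdr. The mean level of dermal papilla markers (8 of 8) correlated at −0.70, −0.72 and −0.65 with Lhx2, Msx2 and Vdr, and that of thymic epithelium markers (8 of 9) at −0.62, −0.39 and −0.55. Among the dermal papilla markers, Prom1 (SD 1.81 and 0.80 in first-graft and second-graft TEC cultures) and Sox2 (0.35 and 0.93) varied most. The SDs of the others were at most 0.30, so their mean may not stand for dermal papilla cells. The mean of melanocyte markers (5 of 7) correlated at 0.70, 0.78 and 0.73 with Lhx2, Msx2 and Vdr. It ranged from 4.00 to 4.35 in first-graft and 4.11 to 4.38 in second-graft TEC cultures, against 3.96 to 4.15 in ungrafted ones, and the defining markers Tyr, Tyrp1 and Mlana were under 4 in all 12. The other measured members were above 4. Mitf, a transcription factor of melanocytes, averaged 5.29 ± 0.58 and 5.51 ± 0.71 in first-graft and second-graft TEC cultures, against 4.72 ± 0.14 in ungrafted ones, and Sox10, a neural crest factor, ranged over 5.29 to 5.46 and 5.29 to 5.50, against 5.23 to 5.49. For stratified epithelium markers r was 0.39, 0.69 and 0.61, and for fibroblast and feeder markers 0.08, −0.29 and −0.05. The part of these markers in the correlations was not tested beyond these values.

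**Figure D3:**
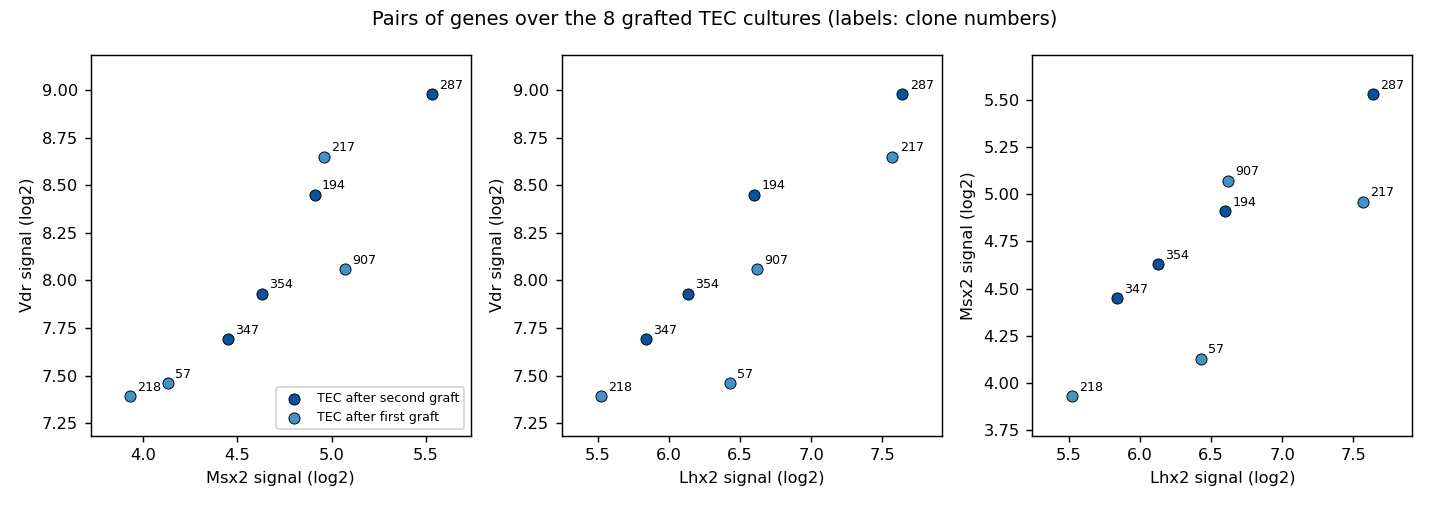
Log2 signals of Msx2 and Vdr, Lhx2 and Vdr, and Lhx2 and Msx2 in the 8 grafted TEC cultures (dark points second graft, light points first graft, numbers are clone numbers). The points climb from Clone_218 to Clone_287 in each panel, and Clone_217 and Clone_287 stand apart in Lhx2.

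The genes with the most similar pattern over all 16 cultures differed for each of the 5. Correlations are given as a description over 16 culture means, among 4819 probe sets that spanned at least 1 log2 unit, and the groups themselves shape them. Lhx2 was most like Cd24, a surface glycoprotein (r = 0.97), Cbs, which encodes cystathionine beta-synthase (0.94), and Rab38, a small GTPase (0.93). Vdr was most like Abcd4 (0.97), Dhcr7, the last enzyme of cholesterol synthesis (0.96), and Klf13 (0.94). Msx2 was most like Sgms1, a sphingomyelin synthase (0.91), Lrat, which esterifies retinol (0.91), and Oat (0.89). Lgr5 was most like Rbpms2 (0.93), Adamts3 (0.89) and Pgf, the placental growth factor (0.89). For Shh the highest were Ccdc190 (0.86), Prxl2b (0.83) and Rasd2 (0.83). Cd24 averaged 9.36 in grafted TEC, 8.10 in ungrafted TEC and 10.12 in HF cultures, and Dhcr7 10.45, 9.44 and 10.37.

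The pathways around the 5 genes were followed through gene lists, which were tested with limma in every comparison. Between ungrafted TEC and HF cultures, 1 of 15 probe sets passed in the R-spondin list, 1 of 17 in the BMP list and 1 of 16 in the LIM list. Of other follicle genes 2 of 17 did, against 1.55% of all probe sets. After the first graft 1 LIM probe set passed against grafted HF cultures (0.0457% of all). After the second, 1 of 17 other follicle probe sets passed against ungrafted TEC (3.86% of all). The lists were chosen with earlier results known, so these counts are a description. In the hedgehog list (10 of 18 genes measured) no gene passed in any comparison. Gli1, a transcription factor and target of hedgehog signals, stood at 5.17 ± 0.08 in first-graft TEC and 5.11 ± 0.14 in second-graft TEC, against 5.68 ± 0.16 in grafted HF cultures, lower without overlap in both (adjusted p = 0.29 and 0.232). Of all probe sets, 19.2% and 15.3% were lower without overlap in these comparisons. The signal transducer Smo was at 8.14 ± 0.23, 8.57 ± 0.33 and 8.78 ± 0.27 in ungrafted, first-graft and second-graft TEC cultures, and 9.09 ± 0.73 and 8.35 ± 0.38 in ungrafted and grafted HF cultures. Ptch1 was not analysed here.

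In the list of R-spondin, Lgr and Wnt response genes (13 of 18 measured, 15 probe sets), Lgr4, a relative of Lgr5 that also binds R-spondins, was lower in ungrafted TEC than in ungrafted HF cultures by −2.20 ± 0.42 (4.59-fold, adjusted p = 0.023). It was 7.39, 7.22, 7.63 and 7.32 in ungrafted TEC cultures, against 9.74 and 9.44 in ungrafted HF cultures. The grafted TEC cultures ran from 7.07 in Clone_907 to 9.0 in Clone_194, all below the grafted HF values of 9.46 and 9.18, but neither difference passed (−1.81 ± 0.49 after the first graft, adjusted p = 0.331, and −1.31 ± 0.49 after the second, adjusted p = 0.255). Lower values without overlap were found for 19.2% and 15.3% of all probe sets in these comparisons. The Lgr4 call ended without YR219P5_Bulk_V (adjusted p = 0.239) and without PRP4mo_Cl09 (0.0559). Axin2, a negative feedback target of Wnt signals, was at 6.47 ± 0.20 and 6.72 ± 0.41 in first-graft and second-graft TEC cultures, against 6.17 ± 0.10 in grafted HF cultures (adjusted p = 0.528 and 0.28). Tcf7l1, a Wnt repressor of follicle stem cells, was read by 3 probe sets, which differed by −0.10 to 0.25 between first-graft TEC and grafted HF cultures and did not pass.

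Of the vitamin D receptor list (16 of 16 measured) no gene passed in any comparison. Hr, the hairless corepressor that binds Vdr and is needed in the mouse hair cycle, came close before grafting (−2.89 ± 0.70 in TEC against HF cultures, adjusted p = 0.0566). It was 5.61, 6.32, 6.02 and 6.10 in ungrafted TEC cultures, 8.11, 5.86, 8.38 and 7.08 in Clone_217, Clone_218, Clone_57 and Clone_907, and 8.51, 6.29, 8.73 and 6.95 in Clone_287, Clone_347, Clone_194 and Clone_354. In HF cultures it was 9.30 and 8.50 before grafting and 8.10 and 8.34 after it. Grafted TEC cultures thus ranged from the ungrafted TEC level to above the grafted HF level. Over them Hr correlated at 0.77 with Lhx2, 0.77 with Lgr5, 0.65 with Vdr, 0.55 with Msx2 and −0.43 with Shh, given as a description. For Lgr4 the values were 0.62, 0.56, 0.75, 0.54 and −0.64 in the same order, so the pattern was not particular to Hr. The values with Lgr5 cannot be read as a relation, because Lgr5 was under 4 in most of these cultures. Rxra, the partner with which Vdr binds DNA, was at 8.68 ± 0.32 and 8.84 ± 0.30 in first-graft and second-graft TEC, against 8.49 ± 0.17 in grafted HF cultures (adjusted p = 0.69 and 0.425). Cyp24a1, the vitamin D hydroxylase that liganded Vdr induces, was at 4.91 ± 0.27 and 5.01 ± 0.16, against 5.29 ± 0.01 (adjusted p = 0.376 and 0.396).

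Of the BMP and Msx list (17 of 19 measured), Bmpr1b, a BMP receptor, was higher in ungrafted TEC than in ungrafted HF cultures by 1.84 ± 0.38 (3.59-fold, adjusted p = 0.0315). After grafting it stood at 6.48 ± 0.52 and 6.08 ± 0.59 in first-graft and second-graft TEC, against 4.78 ± 0.16 in grafted HF cultures (adjusted p = 0.286 and 0.248). The call ended without any one of the 6 ungrafted cultures, and the difference was 1.31 without YR219P5cl7 and 2.38 without YR219P5_Bulk_V. Msx1, the relative of Msx2, was at 4.61 ± 0.25 and 4.70 ± 0.22 in first-graft and second-graft TEC, against 5.01 ± 0.25 in grafted HF cultures (adjusted p = 0.386 and 0.401).

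Isl1 of the LIM list (16 of 17 measured), a LIM homeobox factor of the pharyngeal endoderm, was the one listed gene that passed between grafted TEC and grafted HF cultures. It was higher by 2.16 ± 0.26 after the first graft (4.48-fold, adjusted p = 0.0385), at 6.64 ± 0.20 in first-graft TEC against 4.48 ± 0.24 in grafted HF cultures, and by 2.78 ± 0.29 before grafting (adjusted p = 8.43e-04). The mean of Lhx2, of the same family, was lower in first-graft TEC than in grafted HF cultures, with overlap. That difference did not pass (−0.72 ± 0.56, limma adjusted p = 0.531). The Isl1 call after the first graft ended without any one of the 10 cultures except Clone_354 (adjusted p = 0.0539 to 0.503), while the difference stayed between 1.99 and 2.34. Ldb1, the cofactor that LIM homeobox proteins bind, was at 8.66 ± 0.29 and 8.84 ± 0.39 in first-graft and second-graft TEC, against 9.0 ± 0.07 in grafted HF cultures (adjusted p = 0.51 and 0.738). The median of the LIM list was −0.32 after the first graft, against −0.11 over all probe sets. Several of its probe sets read low: Lhx1, Lhx5 and Ldb2 averaged 4.27, 4.47 and 3.31 in first-graft TEC cultures. The grafted HF cultures include array 1 of YR219P5_RC, whose median was raised. The part of low signals and of that array in the list median was not tested.

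Among other follicle stem cell and placode genes (17 of 25 measured), Gata3, a factor of the inner root sheath, was at 7.51 ± 0.62, 9.20 ± 0.73 and 9.33 ± 0.47 in ungrafted, first-graft and second-graft TEC cultures, and at 9.57 ± 0.35 and 9.23 ± 0.06 in ungrafted and grafted HF cultures. It was lower in ungrafted TEC than in ungrafted HF cultures (−2.06 ± 0.45, adjusted p = 0.0395), and it rose after the second graft (1.82 ± 0.36 over ungrafted TEC, 3.53-fold, adjusted p = 0.0187). After the first graft the difference was 1.69 ± 0.36 (adjusted p = 0.0588). Limma called 1.55% of all probe sets between ungrafted TEC and HF cultures, 3.86% after the second graft and 0.516% after the first, and between grafted and ungrafted HF cultures 0%, with 1354 at an unadjusted p under 0.05 and 49 with culture as a random block.

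Trps1, a zinc-finger repressor whose loss affects hair in humans, was lower in ungrafted TEC than in ungrafted HF cultures (−1.85 ± 0.29, 3.61-fold, adjusted p = 0.00912). After grafting it was at 8.17 ± 0.37 and 8.45 ± 0.45 in first-graft and second-graft TEC, against 8.83 ± 0.26 in grafted HF cultures (adjusted p = 0.376 and 0.497). Krt15, a keratin of bulge cells, was at 9.18 ± 0.88, 10.90 ± 1.42 and 10.23 ± 0.71 in ungrafted, first-graft and second-graft TEC, and 10.66 ± 2.29 and 9.13 ± 0.46 in ungrafted and grafted HF cultures, with overlap throughout. Without YR219P5_Bulk_V the calls of Gata3 and Trps1 between ungrafted TEC and HF cultures ended (adjusted p = 0.36 and 0.158). That of Gata3 also ended without PRP1cl11_VII, PRP4mo_bulk, PRP4mo_Cl09, YR219P5cl7, Clone_194, Clone_354, YR219P5_RC or Clone_54, with adjusted p from 0.051, and the Gata3 call after the second graft ended without PRP4mo_Cl09 (0.0546) or PRP4mo_bulk (0.0594).

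**Figure D4:**
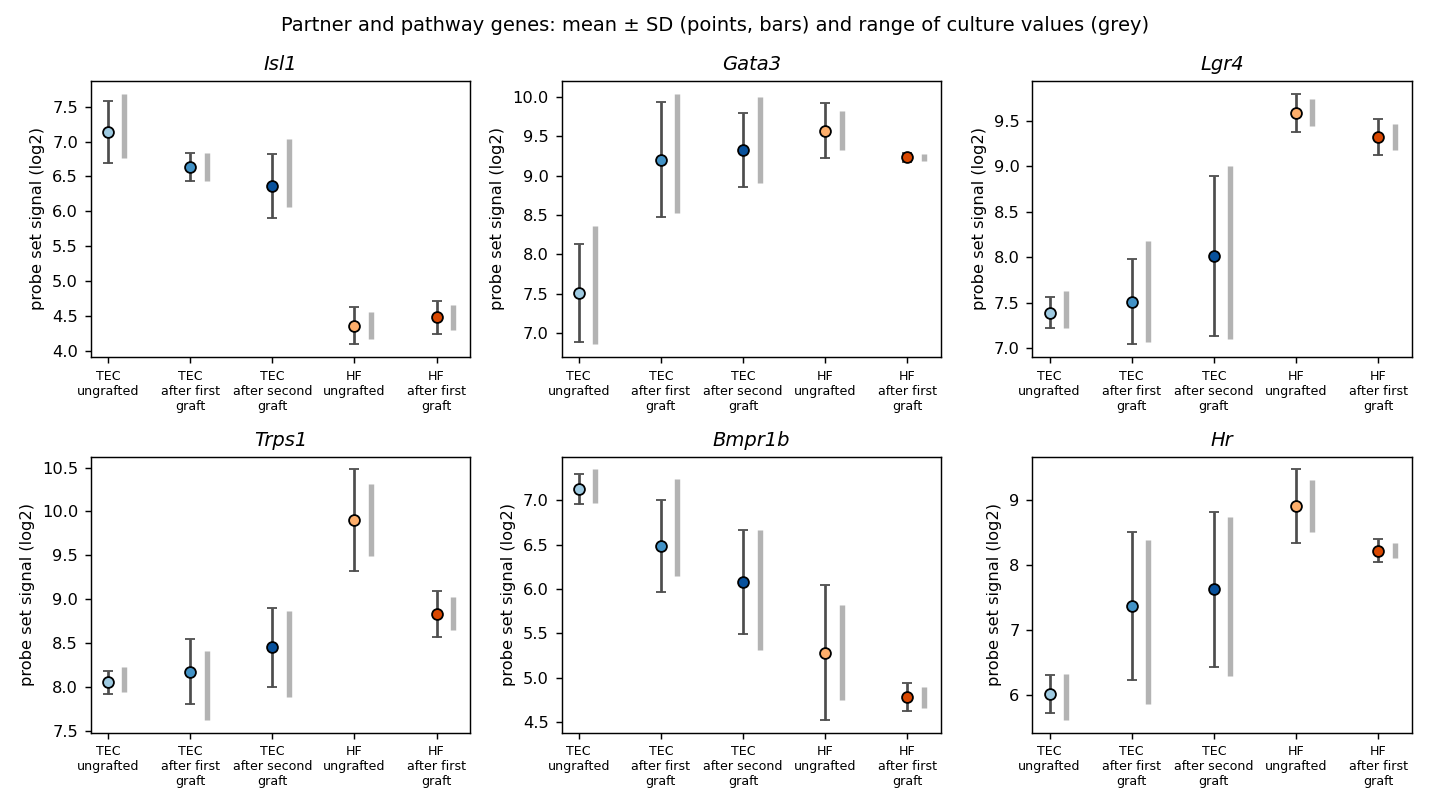
Log2 signal of Isl1, Gata3, Lgr4, Trps1, Bmpr1b and Hr by group, as mean ± SD over cultures (points with bars, n = 4 per TEC group and 2 per HF group) and as the range of culture values (grey). Isl1 stays high in all 3 TEC groups, Gata3 of grafted TEC lies near the HF level, and Hr of grafted TEC spans from the ungrafted TEC to the HF level.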

How the data were processed

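RNA of 16 cultures was measured on Affymetrix rat gene arrays, 2 arrays per culture and 32 in all. The deposited values are log2 probe set signals. The submitters' processing notes name RMA and Affymetrix Expression Console, with no version. Values ran from 1.526 to 14.03 and were not transformed again. Of 29215 probe sets, 15316 carried 1 gene symbol in the platform annotation, 317 several and 13582 no listed gene. All 15316 were tested without a filter on level, and 15284 had an Entrez gene in the RefSeq table. The number of cultures limits the precision. The labels do not say which cultures share an animal, so p-values measure the spread between these cultures. The array numbers only count the arrays of a culture and pair no cultures across groups. No array batch is given.

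The 5 genes, the gene lists and the tests were chosen with earlier results of these data known. Both arrays of a culture were averaged. Differences were tested two-sided with limma 3.58.1 (lmFit, eBayes) in R 4.3.3, with Benjamini-Hochberg adjustment over the 15316 probe sets of a comparison and a threshold of 0.05. Comparisons among grafted cultures used the 10 grafted cultures. Donor age used the 12 TEC cultures, with state and stage as terms. Comparisons with ungrafted cultures used all 16, and gave no p for the 5 genes. The fits were tested on simulated data. Correlations used exact permutation over cultures in Python 3.11.15 with NumPy 2.4.6. Errors of levels are SDs between cultures and those of differences are limma SEs. The limit of 4 on the log2 scale was set after the values were seen.

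The text names the 5 genes, every gene of the pathway lists past the threshold (at most 4 per list and comparison), a panel (Ptch1, Gli1, Smo, Lgr4, Lgr6, Axin2, Rxra, Hr, Cyp24a1, Msx1, Hoxc13, Ldb1, Sox9, Krt15, Nfatc1 and Tcf7l1) and, for each of the 5, the 3 genes most like it. Lgr6, Hoxc13, Sox9 and Nfatc1 were not analysed here. Alternatives were centring each array on its median, arrays as the unit, the array number as a replicate block, other sets of cultures in the fit, donor stage as a term, 1 array left out, a filter at 4 and leaving out each culture. Those for the correlations and for leaving out cultures in comparisons with ungrafted cultures were added after the data were seen. The stage term was centred within TEC cultures, so it could not adjust a difference between TEC and HF cultures for stage.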

Additional observations from a re-analysis of the deposited data

Results flagged for a closer look

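Shh in the ungrafted TEC bulk culture PRP4mo_bulk, at 4.49, stood apart from the other 3 ungrafted TEC cultures, the next being 4.71. The gap made up 0.841 of the range of the group, above the 95% critical value of Dixon's test for 4 cultures. Its arrays read 4.75 and 4.24. In all, 15 sets of 4 cultures were tested in this way, and chance flags about 1 in 20. Without this culture Shh of ungrafted TEC cultures differed from ungrafted HF cultures by −0.39, against −0.45 with it.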

How the results depend on the processing

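The 5 genes mostly kept their direction, and 1 of 365 tested values under an alternative passed. That was Msx2 between first-graft TEC and grafted HF cultures with single arrays in the fit and the culture as a random block (−1.25, adjusted p = 0.0481). In 30 of the 365 the sign turned, all for differences that did not pass. With clonal cultures alone Lgr5 between second-graft TEC and grafted HF cultures was 0.03, and between 4-month and E16 donors Lhx2 was 0.08, Shh −0.05 and Msx2 −0.11. These values rest on 1 grafted HF culture, Clone_54, and on 1 TEC culture of 4-month donors, PRP4mo_Cl09. Leaving out each culture gave ranges of −0.22 to 0.21 for Vdr between second-graft TEC and grafted HF cultures and −0.35 to 0.36 for Lhx2 between second-graft and first-graft TEC cultures. Between donor ages it gave −0.42 to 0.14 for Lhx2, −0.06 to 0.11 for Lgr5, −0.06 to 0.06 for Shh and −0.22 to 0.25 for Msx2.

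Counts of called probe sets moved strongly. With culture as a random block they were 163 for first-graft TEC against grafted HF (7 as reported), 306 for second-graft TEC against grafted HF (0), 977 before grafting (238), 1183 and 2070 for first-graft and second-graft against ungrafted TEC (79 and 591), 49 for grafted against ungrafted HF (0) and 488 for donor age (14). With the array number as a replicate block as well they were 124, 258, 944, 1132, 2014, 36 and 448, and that block ended the one call of the 5 genes, that of Msx2 (adjusted p = 0.062), and changed no other call of them. Clonal cultures alone gave 0 and 35 for first-graft and second-graft against ungrafted TEC. In comparisons with HF cultures and between donor ages they leave 1 culture in a group, so no count is given. For first-graft and second-graft TEC against grafted HF, centring gave 1 and 2, and all 16 cultures in the fit 11 and 7. Donor stage as a term, which left the differences unchanged, gave 21 and 20 for the same comparisons. Leaving out each culture gave 0 to 1 and 0 to 59 for these, 0 to 10 for second-graft against first-graft TEC, 18 to 375 before grafting, 8 to 148 and 149 to 674 for first-graft and second-graft against ungrafted TEC, 0 to 260 for grafted against ungrafted HF and 7 to 83 for donor age. The extremes were without Clone_287 (59, 10 and 674), YR219P5_Bulk_V (18), YR219P5cl7 (375 and 260), Clone_217 (8), Clone_57 (148), PRP4mo_bulk (149), Clone_347 (7, also 7 without Clone_354) and Clone_907 (83). The cause of these moves was not tested. Isl1 after the first graft was 2.30 with centred arrays (adjusted p = 0.05) and 1.92 with clonal cultures alone, which leave 1 grafted HF culture. With clonal cultures alone the call of Gata3 after the second graft ended (limma adjusted p = 0.167). Before grafting they leave 1 HF culture, and the differences of Lgr4, Bmpr1b, Gata3 and Trps1 were −2.13, 2.30, −1.77 and −1.50, with no test given. Among correlations, that of Lhx2 and Msx2 was 0.76 with array 2 of each culture alone (exact permutation adjusted p = 0.102), and without Clone_218 those of Lhx2 with Msx2 and Vdr were 0.74 and 0.86 (0.198 and 0.0784).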
